A study of Drosophila melanogaster with 4 samples.

Results

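The subject is the set of HP4-enriched regions on U, the sequence of the Drosophila melanogaster genome assembly that was assigned to no chromosome. The members were all rows on U in the authors' combined list of enriched regions, 1357 of 4366, and they were compared with the 1017 U regions of ChIP replicate 1 and the 1022 of ChIP replicate 2. No list held a region on the companion sequence Uextra. Chromatin came from wild-type Oregon-R embryos (the modENCODE stock) staged at 14 to 16 h, which was crosslinked with formaldehyde and immunoprecipitated with the HP4 antibody Q4072. All 4 libraries, 2 ChIP and 2 input, share this strain, genotype and stage, and no treatment is named. Whole embryos were used, so the lists average over all their cell types.

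HP4 is a chromatin protein known as a partner of HP1, the protein that binds methylated histone H3 and marks heterochromatin, the densely packed chromatin around centromeres that is full of repeated sequence. U is not a chromosome. It is a string of sequence scaffolds that could not be placed, joined in an order that need not follow their positions in the nucleus, and much of such sequence is heterochromatic repeat. Whether reads that fit several positions were kept is not given in the sources used here, and the counts of regions below depend on that choice. The release 5 sequence of U was not used here, so no gene, repeat or gap is named inside a region.

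HP4 regions were spread over nearly the whole of U, at about 100 regions per Mb. Replicate 1 had 101 regions per Mb of U, replicate 2 had 102, and the combined list had 135. The first covered base was at position 10432 in replicate 1, 8745 in replicate 2 and 4875 in the combined list, and the last was at 10043786, 10035181 and 10048454, on a sequence of 10049037 bp. Together, 28.6% of U lay in regions of both replicates, 43.6% in regions of at least 1 replicate, and 43.0% in no region of any list. U supplied 37.6% of all regions in replicate 1, 38.2% in replicate 2 and 31.1% in the combined list. These shares differed between the replicates by less than 1 percentage point.

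Most regions on U were short, and the few of at least 10 kb held a larger share of the covered bases in the combined list than in either replicate. Widths had a median of 2388 bp in replicate 1 and 2443 bp in replicate 2, with middle 50% of 1859 to 3986 bp and 1929 to 3983 bp. In the combined list the median was 2772 bp, the narrowest region 1001 bp and the widest 57229 bp. Regions of at least 10 kb numbered 39 in replicate 1, 45 in replicate 2 and 98 in the combined list. They held 16.4%, 19.2% and 29.7% of the covered bases of U in the respective list. The combined list had 22 regions of at least 20 kb, where the replicates had 5 and 7.

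Neighbouring regions lay close together. The gap from a region to the next had a median of 3478 bp in replicate 1, 3684 bp in replicate 2 and 1762 bp in the combined list. When regions under 5 kb apart were joined, the combined list fell into 284 domains with a median of 13.4 kb. Its widest domain ran over 236309 bp, from 6041979 to 6278287. It joined 32 regions and was covered over 49.3% by replicate 1 and 50.9% by replicate 2. The second, of 230382 bp from 465385 to 695766, joined 24 regions and was covered over 65.8% and 66.3%. The third ran over 190400 bp from 7454043 to 7644442 with 40 regions, and 37.5% and 37.1% of it lay in regions of replicates 1 and 2.

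The longest stretch with no region in any list began at the very end of the second of these domains. It spanned 123 kb, from 695767 to 818280. In the 100 kb just before it, replicate 1 covered 64.7% and replicate 2 59.1%, and in the 100 kb just after it they covered 32.1% and 40.4%. The next longest empty stretches were much shorter, 41.0 kb from 4784874, 34.8 kb from 2514027, 34.7 kb from 4513131 and 31.1 kb from 8033973. In all, 14 stretches of at least 20 kb were empty, and the median of the 1350 empty stretches was 1.74 kb. Runs of unknown bases, which assemblies place at scaffold joins, count in the length of U and cannot carry regions. Whether the empty stretches hold such runs was not tested.

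Coverage changed along U, and both replicates followed the same course. In the first 1 Mb, 51.9% of the sequence lay in replicate 1 regions and 55.8% in replicate 2 regions. Coverage then fell to 23.5% and 24.8% in the fifth interval of 1 Mb, rose to 44.0% and 44.7% in the seventh, and fell to 22.2% and 23.6% in the tenth. The SD between replicates was at most 2.79 percentage points in any of these intervals. Across 40 intervals of 0.25 Mb, the coverage of the replicates had a Spearman rho of 0.971, a description across intervals of the same libraries, which are not independent.

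The most covered interval of 0.25 Mb was from 250001 to 500000, at 69.0% ± 4.22 (SD, n = 2). It was followed by 1250001 to 1500000 at 63.4% ± 1.47 and by 1 to 250000 at 57.2% ± 3.68. The least covered were 4500001 to 4750000 at 15.2% ± 0.673, 8000001 to 8250000 at 17.2% ± 0.441 and 9500001 to 9750000 at 18.5% ± 2.21. The top 3 intervals thus all lay in the first 1.5 Mb of U. Every interval had some HP4 regions in each replicate.

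The first 5 Mb were covered over 40.3% ± 0.769 and the rest over 32.0% ± 1.04, a ratio of 1.26 ± 0.0170. The order reversed for the number of regions, for which the ratio was 0.800, since the regions of the first 5 Mb were fewer and wider. Their median width was 2930 bp ± 96.5 against 2193 bp ± 19.1 further on. In the combined list the difference in coverage was nearly absent, at 56.8% and 56.5%. The combined list added more bases towards the right end: its bases outside all replicate regions made up 98.8 kb of the first 1 Mb and 210.2 kb of the tenth.

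Scores were lower at the left end of U and higher beyond it, without mirroring coverage throughout. Each region carries 1 score, set by the authors on a scale that the files do not name. The median score was 1.28 in replicate 1 and 1.22 in replicate 2 in the first 1 Mb, and 1.79 and 1.70 in the tenth. The seventh interval, where coverage rose, also had the highest replicate medians of the 10 full intervals, 1.96 and 1.82. In the combined list its median was 1.52, below 1.61 in the tenth and 1.59 in the fifth. From the first interval to the second, coverage and score fell together. Across the 40 intervals of 0.25 Mb, coverage and median score ran in opposite directions. Their Spearman rho was -0.547 in replicate 1, -0.498 in replicate 2 and -0.352 in the combined list. The median score beyond 5 Mb was 1.74 ± 0.06 against 1.36 ± 0.04 in the first 5 Mb. Across regions, start position and score had a Spearman rho of 0.373 in replicate 1, 0.355 in replicate 2 and 0.284 in the combined list. The score of a region and that of the next had a rho of 0.328, 0.271 and 0.279 in these lists. These are descriptions of 1017, 1022 and 1357 regions that share a library.

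**Figure D1:**
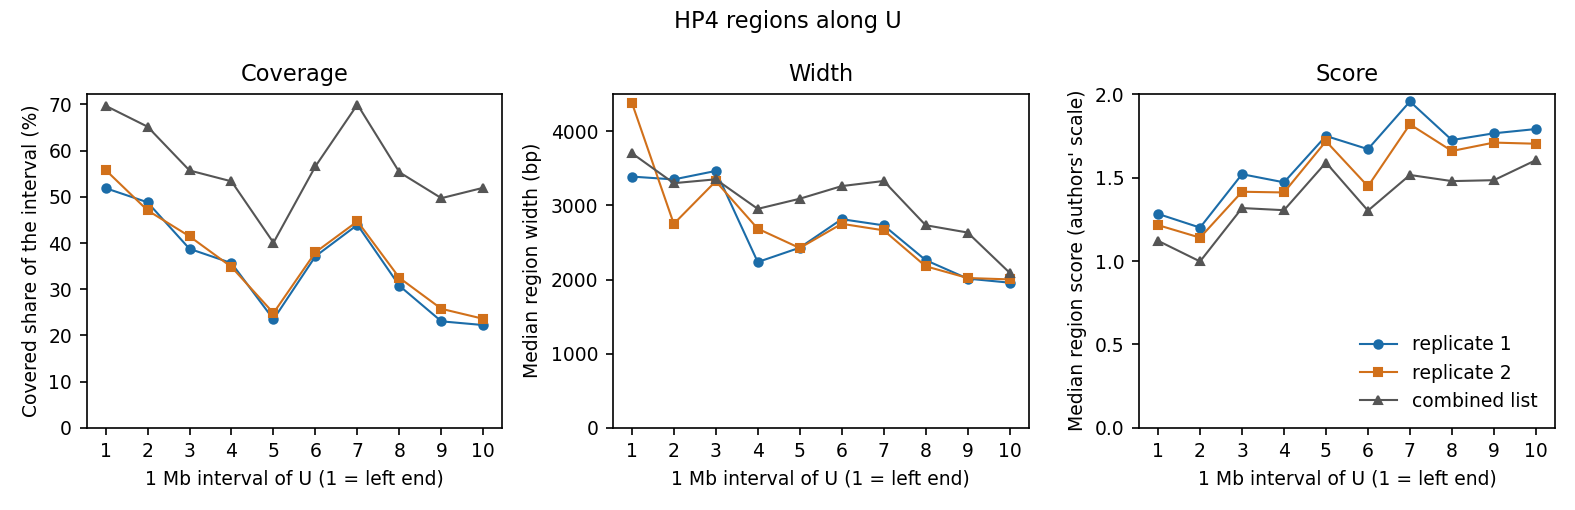
Coverage (percent of the interval), median width (bp) and median score (authors' scale) of HP4 regions in 10 successive 1 Mb intervals of U, with a line for each replicate and for the combined list. Replicate coverage falls from over 50% in the first interval to 22.2% and 23.6% in the tenth with a rise to 44.0% and 44.7% in the seventh, while the median score is lowest in the second interval at 1.20, 1.14 and 1.00.

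U stood apart from the heterochromatic Het scaffolds in score more than in number of regions. The 5 Het scaffolds (2LHet, 2RHet, 3LHet, 3RHet and XHet) had 94.1 ± 1.03 regions per Mb against 101 ± 0.352 on U. Their regions were wider, with a median of 3592 bp ± 8.13 against 2416 bp ± 38.9, so that U had 0.695 ± 0.00707 times their coverage. Scores above 2 were found in 28.3% of the U regions of replicate 1 and 24.5% of those of replicate 2. On the Het scaffolds the same shares were 4.96% and 3.24%. Of the 100 highest-scoring regions of each list, 87 lay on U in replicate 1, 93 in replicate 2 and 74 in the combined list. Of all regions, U held 37.6%, 38.2% and 31.1% in these lists.

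YHet, the scaffold of the Y chromosome, was nearer to U than the Het scaffolds were in median score and median width. In regions per Mb the replicates differed on this. Its regions scored 1.69 in replicate 1 and 1.45 in replicate 2 at the median, against 1.60 and 1.56 on U, and their median widths were 1987 and 2297 bp. It had 92.2 and 98.0 regions per Mb, against 94.8 and 93.3 on the Het scaffolds and 101 and 102 on U. In the combined list YHet had 135, like U, against 90.4 on the Het scaffolds. The YHet values rest on 32 and 34 regions in the replicates and 47 in the combined list. The sequences compared come from the same 2 libraries, and an exact two-sided permutation test over 2 pairs cannot give a p below 0.5, so none of these differences between sequences was tested. They are given with the spread between replicates.

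**Figure D2:**
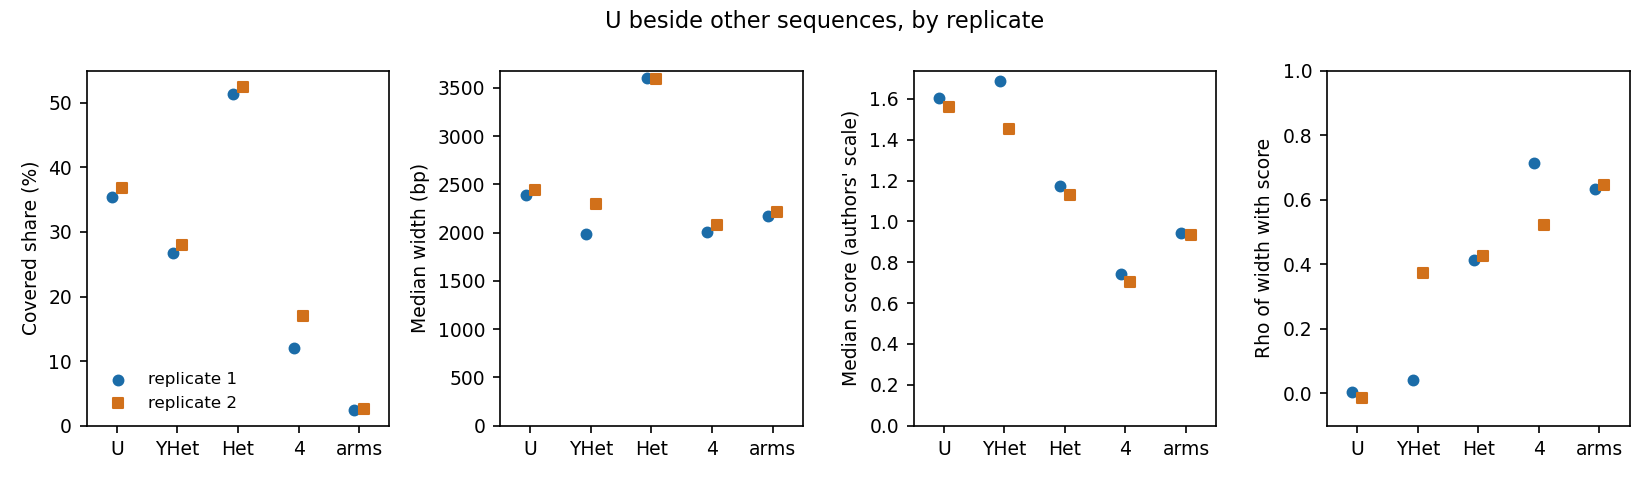
Covered share (percent), median width (bp), median score (authors' scale) and Spearman rho of width with score on U, YHet, the 5 Het scaffolds together, chromosome 4 and the 5 large arms together, with 1 point per replicate. U lies below the Het scaffolds in coverage and width, above them in score, and near 0 in the correlation of width with score.

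The difference in score between U and the Het scaffolds was smaller among wide regions. Over all regions the median score on U was higher by 0.43 in each replicate. Among regions under 1.5 kb, U had a median of 1.56 in replicate 1 and 1.65 in replicate 2, and the Het scaffolds had 1.02 and 0.79. From 5 to 10 kb the medians were 1.50 and 1.40 on U against 1.27 and 1.23. Among regions of at least 10 kb the order turned, with 1.39 and 1.30 on U against 1.40 and 1.37 on the Het scaffolds. In the combined list U was also higher in that widest class, at 1.35 against 1.22. The widest class held 39 and 45 regions on U and 119 and 120 on the Het scaffolds.

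On the Het scaffolds and the large arms wider regions scored higher, and on U they did not. Width and score had a Spearman rho of 0.004 in replicate 1 and -0.014 in replicate 2 on U. On the Het scaffolds rho was 0.412 and 0.425, on the 5 large arms 0.632 and 0.645, and on YHet 0.043 and 0.374. In the combined list rho was 0.088 on U. With regions of recurring score left out it was 0.110 as the mean of the replicates.

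Recurring scores were frequent on U. Of its regions, 485 in replicate 1 (47.7%) had exactly the score of another region of the list (tolerance 1e-09), against 34.6% of the regions of that list on all sequences. In replicate 2 these were 459 (44.9%) against 30.6%. In the combined list they were 527 (38.8%) against 38.2%, so there U showed no such excess over all sequences. All sequences include U itself and the large arms. On the large arms the share was 28.6% in replicate 1, 20.0% in replicate 2 and 45.8% in the combined list. On the Het scaffolds the shares were 23.7%, 21.6% and 20.0%, and on YHet, with few regions, they were above those of U at 65.6%, 47.1% and 48.9%. Recurrence became less frequent as width rose, but it was not confined to the narrow regions. It reached 86.0% of the U regions under 1.5 kb in each replicate and 85.2% in the combined list. From 2000 to 3000 bp it was 48.2% in replicate 1, 51.4% in replicate 2 and 35.7% in the combined list. This class held the median width of each list. Among U regions of at least 10 kb, recurrence was 5.13%, 2.22% and 2.04% in these lists.

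The most frequent of the recurring values on U were spaced like ratios of whole numbers, although only these were examined, out of 225 distinct recurring values in the combined list. The most frequent score on U in the combined list was 1.36, found in 20 regions with starts from 844369 to 9324707. The next was 1.94, in 14 regions, which lies above it by the log2 of 3/2 (tolerance 1e-06). The score 2.16, in 10 regions, lies above it by the log2 of 7/4, and 1.68, in 8 regions, by the log2 of 5/4. The score 2.36, in 9 regions, lies above it by exactly 1, which is a doubling on a log2 scale. The most frequent scores were 1.94 in replicate 1 (14 regions) and both 1.36 and 1.95 in replicate 2 (13 regions each). Few regions of U had both the score and the width of another U region: 0 in replicate 1, 2 in replicate 2 and 31 in the combined list.

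**Figure D3:**
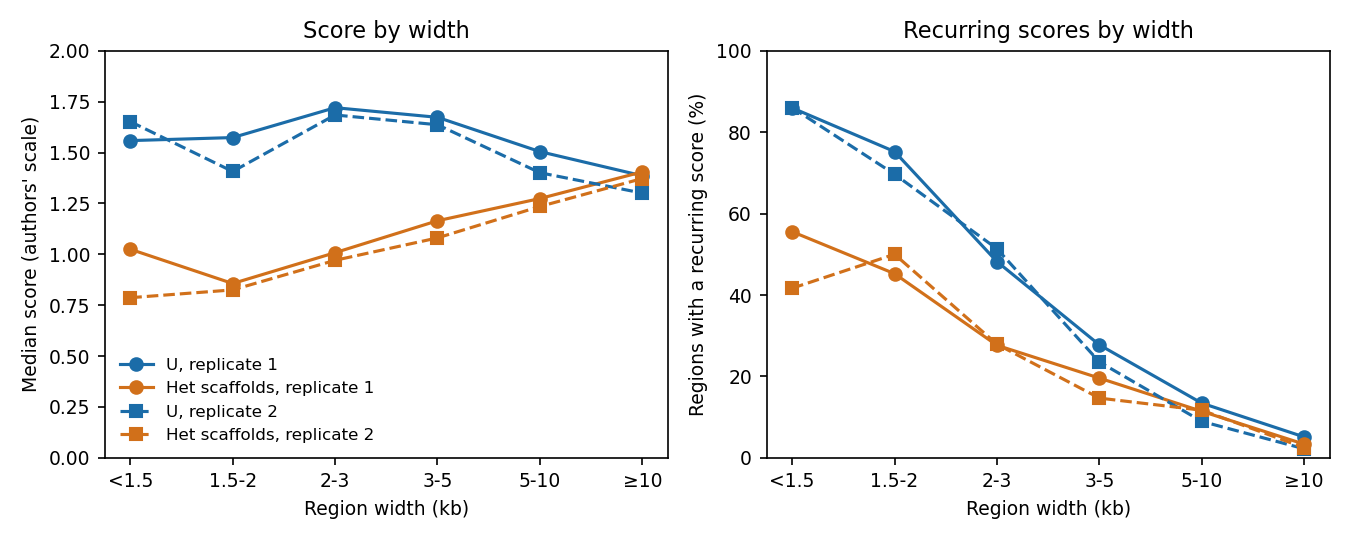
Median score (authors' scale, left) and share of regions with a recurring score (percent, right) by region width in kb, for U and the Het scaffolds in each replicate. The curves for U and the Het scaffolds are apart for narrow regions, 1.56 and 1.65 against 1.02 and 0.79 under 1.5 kb, and meet at 10 kb and more, where recurring scores fall to 5.13% and 2.22% on U.

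The replicates agreed on most positions on U. In replicate 1, 844 U regions (83.0%) shared at least 1 bp with a replicate 2 region, against 82.8% over all sequences. In replicate 2, 820 (80.2%) had a partner in replicate 1, against 79.7%. U was thus close to the background of the lists, and below the Het scaffolds at 88.6% ± 0.461. Of the covered bases, 80.7% in replicate 1 and 77.9% in replicate 2 also lay in regions of the other, a Jaccard index of 0.656. The index fell along U, from 0.794 in the first 1 Mb to 0.438 in the ninth and 0.451 in the tenth. Coverage also fell along U, and the index that chance would give at each coverage was not computed.

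Regions without a partner were narrow and no weaker by score. They numbered 173 in replicate 1 and 202 in replicate 2, and were 1708 and 1749 bp wide at the median, where regions with a partner had 2757 and 2803 bp. Their median scores were 1.67 and 1.62, against 1.60 and 1.55. Recurring scores made up 79.2% and 69.8% of them, against 41.2% and 38.8% of those with a partner.

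There were 594 pairs in which 1 region of each replicate overlapped the other and nothing else on U. The starts differed by a median of 256 bp and the ends by 245 bp, and in 310 pairs both edges lay within 500 bp. The scores of these pairs had a Spearman rho of 0.805, across regions and without a test. Replicate 1 scored higher in 365 pairs and replicate 2 in 229, with a median difference of -0.07 (replicate 2 minus replicate 1). The absolute difference had a median of 0.20 and exceeded 1 in 29 pairs, 4.88%. On the Het scaffolds it had a median of 0.11 and exceeded 1 in 1 of 451 pairs, on scores that span a narrower range.

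The 5 pairs that differed most in score were places where the 2 replicates' regions overlapped but were scored far apart. A region of replicate 1 from 6300408 to 6302525 scored 4.60, and its partner from 6301100 to 6302411 scored 2.04. One from 6358380 to 6360306 scored 4.35 against 1.86 in replicate 2. One from 4559643 to 4563437 had the highest replicate 1 score on U, 4.67, against 2.36 in a narrower partner of 1447 bp. The opposite was seen for a replicate 2 region from 5893707 to 5895866 that scored 4.36, but its partner in replicate 1, from 5895445 to 5897336 with 2.16, shared only 422 bp with it. The last pair, from 3109163 in replicate 1 and 3109618 in replicate 2, scored 4.28 and 2.44. Among the 83 pairs that were at least 5 kb wide in both replicates, the median absolute difference was 0.13 and rho was 0.913. Among the 60 pairs under 2 kb in both, they were 0.16 and 0.823.

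**Figure D4:**
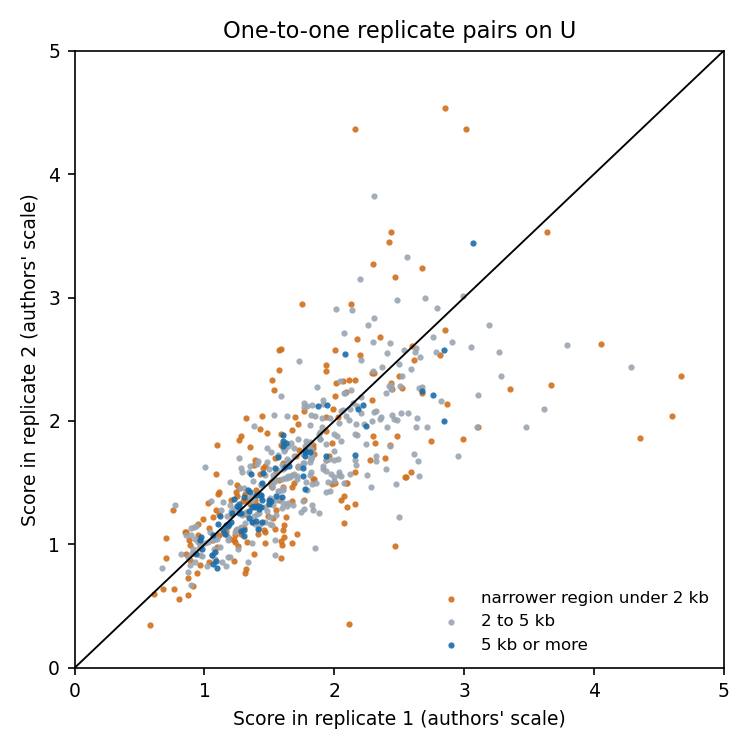
Score in replicate 1 against score in replicate 2 (authors' scale) for the 594 one-to-one pairs on U, coloured by the width of the narrower region, with the line of equal scores. Points scatter on both sides of the line with a median absolute difference of 0.20, and the largest differences are at scores of 4 and more in a single replicate.

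Both replicates overlapped 652 of the 1357 combined-list regions on U (48.0%, Wilson 95% interval 45.4% to 50.7%, counting error only), against 37.6% over all sequences. These 652 regions carried 74.7% of the covered bases. A further 307 (22.6%) were overlapped by 1 replicate, against 17.9%, and 398 (29.3%, interval 27.0% to 31.8%) by neither, against 44.5%. U lay between the other parts. Both replicates overlapped 63.4% of the combined-list regions on the Het scaffolds and 21.0% of those on the large arms. Neither overlapped 20.4% and 64.9% of them. The 398 were narrow, with a median of 1483 bp against 4645 bp for the 652. They were not low in score, with a median of 1.32 against 1.47. On all other sequences, the regions overlapped by neither had a median score of 0.55, against 1.05 for those overlapped by both. Those sequences pool parts of unlike score. The combined-list median was 0.56 on the large arms and 1.03 on the Het scaffolds, and the classes were not compared within each. On U, 74.1% of the regions overlapped by neither had a recurring score, and 15.3% of those overlapped by both.

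The overlap rose with width over the whole range, and with score only in the lower part of it. In the lowest decile of the U regions by width, 1001 to 1198 bp, both replicates overlapped 0 of 136. In the fifth decile, 2295 to 2772 bp, they overlapped 49.3%, and in the highest, from 8350 bp, 136 of 136. A wider region has more bases on which to meet another, and the replicate lists hold no region under 1301 bp, so these shares were not set against chance. By score, the share rose from 22.8% in the lowest decile through 30.9% and 40.7%, and lay between 54.1% and 59.6% from the fourth to the ninth. It was 43.4% in the highest decile, with scores from 2.26 to 4.26. In that decile, neither replicate overlapped 55 of 136 regions.

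**Figure D5:**
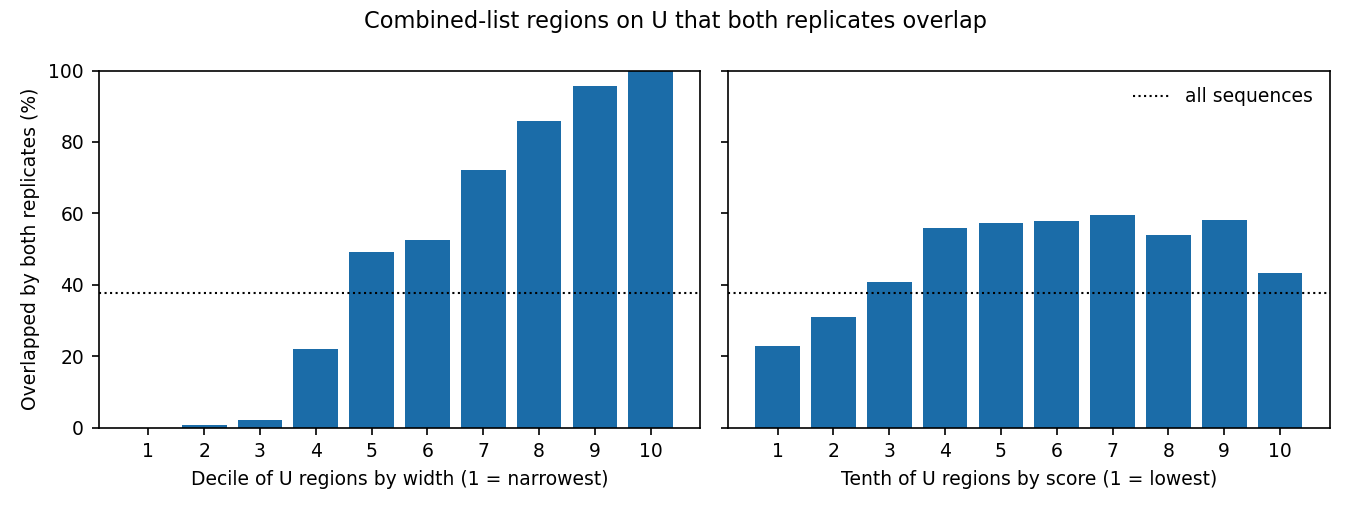
Share of combined-list regions on U that both replicates overlap (percent), by deciles of width (left) and of score (right), with the share over all sequences, 37.6%, as a dotted line. The share rises from 0 in the narrowest decile to 136 of 136 regions in the widest, and is 43.4% in the highest decile by score. The share on the Het scaffolds, 63.4%, is not drawn.

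The highest score on U in the combined list, 4.26, belonged to a region that neither replicate overlapped, from 3802996 to 3804999. The next of this kind ran from 9210777 to 9214187 with 3.98 and from 9557275 to 9558302 with 3.68. Of the 398, 269 (67.6%) lay within 5 kb of a region overlapped by both. The same held for 62.5% of the regions overlapped by 1 replicate, and 72.4% of those overlapped by both lay that near another.

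Combined regions often joined several replicate regions. Of the 652, 445 held 1 region of each replicate and 207 held more of at least 1, up to 5 of replicate 1 and 6 of replicate 2. In the 445, the combined region had a median width of 3683 bp, against 2500 and 2590 bp in the replicates. Their median score was 1.48, against 1.61 and 1.57. The combined score lay between the replicate scores in 260 of them, below both in 177 and above both in 8. In 6 of the 652, the replicates shared no base inside the combined region.

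Among the 10 highest-scoring regions that both replicates overlapped, replicate scores ran from 2.36 to 4.60. In 4 of the 10, they differed by more than 1. The region at 4991487 to 4993915, with 3.46 the highest of them, was stronger in replicate 2, at 4.53 against 2.85, as was that at 7900693 to 7902805, at 3.53 against 2.44. The region from 8657712 to 8660075 had the closest scores, 2.99 in replicate 1 and 3.01 in replicate 2, with 3.08 in the combined list, and over 95% of it was covered by each. That from 2045538 to 2048266 had 2.76 and 2.68 with 2.80 combined, and that from 2183372 to 2185881 had 3.27 and 2.56 with 2.89. Both were found in similar bounds by the replicates, which covered 74.3% and 74.4% of the first and 99.6% and 99.2% of the second.

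In other high-scoring regions the replicates differed in score or in place. From 6237054 to 6241578 the scores were 3.79 and 2.62, and from 4237528 to 4242905 they were 3.28 and 2.36. From 6561161 to 6564686 they were close, at 3.64 and 3.53, but replicate 1 covered 88.9% of the region and replicate 2 41.0%. The region from 6298834 to 6302660 scored 3.06 and drew on different places. Its main replicate 2 region, from 6298594 to 6300320 with 3.68, overlapped no replicate 1 region, and the replicate 1 region with 4.60 lay to its right, on the less strong replicate 2 region named above.

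The best replicated region of each 1 Mb scored lowest at the left end of U. It was 2.01 in the first interval (from 899017 to 907419, 1.94 and 2.13 in the replicates) and 2.01 in the second (from 1031105 to 1049370, 2.28 and 2.15). It was 2.89 in the third, 3.00 in the fourth and 3.46 in the fifth. In the sixth it was 2.74, from 5144902 to 5150688, with 3.61 and 2.10 in the replicates. It was 3.06, 3.12 and 3.08 in the seventh, the eighth and the ninth. In the tenth it was 2.65, from 9047837 to 9053666, with 2.74 and 2.81.

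The widest replicated regions were more even. The widest, from 373027 to 430255, scored 1.39, and its main region scored 1.47 in each replicate. It was covered over 95.7% by 2 regions of replicate 1 and 98.6% by 3 of replicate 2. The second, 39.2 kb from 8665 to 47815, was covered over 88.1% and 98.1% and scored 1.20 and 1.32. The third, 38.9 kb from 2407663 to 2446588, was a single region in replicate 2, at 1.26, and 3 regions in replicate 1, the largest at 1.54. The fourth, 34.2 kb from 1449568 to 1483750, scored 1.71 and 1.55. The fifth, 32.5 kb from 3130282 to 3162733, scored 1.96 and 1.56 and lay to the right of the high-scoring region that starts at 3109161. The replicate SD of these 5 scores was at most 0.28.

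Some strong regions of 1 replicate had no partner. In replicate 1 the region from 8255131 to 8257214 scored 3.67, and that from 4163832 to 4166902 scored 3.29. In replicate 2 the highest was from 2727909 to 2729875, with 4.06, and that from 9774209 to 9775962 scored 3.68, as did the one from 6298594 described above. These were overlapped by combined-list regions with scores of 3.77, 2.58, 2.88, 3.88 and 3.06. In contrast, the replicate 1 region from 7239075 to 7240715, with 3.94, fell inside a combined region of 7226072 to 7240872 that scored 1.11. Of all U regions, the combined list missed 2 of replicate 1 and 3 of replicate 2.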

How the data were processed

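The authors aligned the HP4 ChIP-seq reads with Bowtie (version 0.12.7), per the submitters' processing notes. They deposited 3 lists of enriched regions with 1 score each, in FlyBase release 5 coordinates per the file headers. The caller, its threshold and how the replicates were merged are not stated in the sources at hand. Depth per library is unknown, and the input libraries gave no value here. The labels do not tell if the replicates were separate embryo collections, so their spread may be technical.

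Versions were Python 3.11.15, scipy 1.17.1, numpy 2.4.6, matplotlib 3.10.9 and pandas 2.3.3. Coverage divides bases in regions by the header's sequence length. Overlap is at least 1 shared bp. A combined region's replicate score is that of the replicate region sharing most bases with it. Regions were named by rule: the 10 highest and 5 widest replicated regions, the best of each 1 Mb, the 3 highest unmatched of each list, the 5 longest empty stretches, the 5 most different pairs, the 3 most and least covered 0.25 Mb intervals and the most recurrent scores. Members, lists and rules were chosen with earlier results of these data known. Width classes, deciles and joined domains were added later. Functions were tested on simulated lists. Alternatives were the combined list, the upper 50% by score, joined regions, stricter overlaps, other split points and each replicate left out.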

Additional observations from a re-analysis of the deposited data

How the results depend on the processing

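Of 43 alternative values, 2 changed direction and 23 moved by more than a set tolerance, which was 1 replicate SD for most, the Wilson interval for shares of the combined list and the Jaccard index, 1.5 times for counts of regions and 0.05 for the rho of matched scores. The other 18 stayed within it. Most of the 18 left out a replicate, which returns the value of the other one. With 2 replicates that value always lies within 1 SD of their mean. Under the SD tolerance these settings therefore could not move, and they say nothing on robustness. Both changes of direction concern the ratio of coverage in the first 5 Mb of U to the rest, 1.26. It was 0.800 for regions per Mb, because regions there were wider, and 0.985 in the upper 50% by score, where the cause was not tested. It was 1.00 in the combined list, 1.59 with a split at 2.5 Mb and 1.68 with a split at 7.5 Mb. Without replicate 1 or 2 it was 1.25 and 1.27. Coverage of U, 36.1%, was 27.8% in the upper 50% by score and 56.7% in the combined list, and 35.5% to 36.7% with a replicate left out. Joining regions under 5 kb apart took the 1019.5 regions per replicate to 411.5, by construction. Joining those under 1 kb apart gave 805 and the upper 50% by score 779, both outside the 1017 and 1022 of the replicates. The 779 are more than 50% of the U regions, so the cut by score was not taken within U. A replicate left out gave 1017 to 1022. The score difference from the Het scaffolds, 0.43, was 0.35 in the combined list, 0.34 as a mean weighted by width, 0.42 for regions of at least 2 kb and 0.34 without recurring scores, a setting chosen after seeing the data; it was 0.43 with either replicate left out. The coverage ratio to the Het scaffolds, 0.695, was 0.915 in the upper 50% by score and 0.866 in the combined list, and 0.690 to 0.700 with a replicate left out. The share of replicate regions with a partner, 81.6%, was 76.1% when 50% of the region had to overlap, 64.1% with reciprocal overlap and 74.8% in the upper 50% by score; 80.2% and 83.0% are the shares of the single lists. The Jaccard index, 0.656, was 0.555 in the upper 50% by score. The share of combined regions overlapped by both replicates, 48.0%, was 39.1% when each had to cover 50% of the region and 40.6% in the upper 50% by score. The rho of 933 overlapping pairs, 0.779, was 0.805 for one-to-one pairs, 0.837 with reciprocal overlap and 0.856 for the 418 pairs without recurring scores. The rho of width with score, -0.005, was 0.088 in the combined list and 0.110 without recurring scores, and -0.014 to 0.004 with a replicate left out. The share of recurring scores, 46.3%, was 38.8% in the combined list. No paired analysis was possible because the 2 input libraries, which share the replicate numbers, gave no values. Unknown depth limits all scores, and read placement on repeated sequence could not be varied.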
